A study of Homo sapiens with 9 samples.

Results

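The semaphorins, plexins and neuropilins are a family of guidance ligands, their receptors and their coreceptors. They were taken from the deposited count table by gene symbol. Of 23710 entries in the table, 31 carried such a symbol, and 28 of these had 30 or more counts summed over the 9 libraries. The members were thus chosen by their symbol and selected on the summed count, with no test of that value. Just inside that bound were SEMA5A with 49 counts and SEMA6A with 93, and just outside it were SEMA4A with 8 counts and SEMA5B and SEMA6D with 0 each. Of the 28 members, 27 were among the 12546 genes that passed the filter on low counts, and SEMA5A was not.

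RNA was sequenced from the human breast cancer line MDA-MB-231, which is triple-negative and mesenchymal-like. All cells carried a pGIPZ lentiviral vector expressing a short hairpin RNA. It was directed against UGDH in the groups shUGDH-1 and shUGDH-2 and was non-targeting in the group shNT, with 3 libraries each. UGDH is the enzyme that makes UDP-glucuronate, a building block of hyaluronan and of heparan and chondroitin sulfate chains. The labels describe the cultures as biological replicates, but do not say whether each was transduced on its own. All p-values therefore reflect the variation among these libraries, which may be technical. The model is a partial depletion in 1 cell line.

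Semaphorins bind plexins through a shared extracellular domain, and most secreted class 3 semaphorins need a neuropilin to hold them to a plexin. The plexin's cytoplasmic part then switches off small GTPases of the Ras and Rap type, which loosens adhesion and reshapes the actin skeleton. Neuropilins also bind VEGF family growth factors and heparan sulfate, and in tumour cells the system is known for effects on migration, invasion and vessel growth.

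The hairpins, which define the groups, are given 5′ to 3′ as the labels have them, in lower case throughout because the whole stretch is the targeting sequence.
shUGDH-1: ttgcatcaaatatgcgacg
shUGDH-2: atatacttcagatctgctg
shNT: atctcgcttgggcgagagtaag
Both UGDH hairpins were antisense to UGDH transcripts over all 19 bases. The longest antisense run of the shUGDH-1 hairpin in any transcript of the family was 9 bases, in SEMA4F, SEMA5A, SEMA6D and PLXNC1. That of the shUGDH-2 hairpin was 11 bases, in PLXNA4, and that of the 22-base shNT hairpin was 10 bases, in PLXNB2. In NRP2 the longest runs were 8 bases for shUGDH-1, 7 for shUGDH-2 and 7 for shNT.

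UGDH itself stood at 7.62, 7.30 and 8.03 CPM (counts scaled to a common library size) in shUGDH-1 and at 8.09, 6.62 and 6.79 CPM in shUGDH-2, against 53.0, 55.6 and 50.3 CPM in shNT. Its log2 fold change was -2.80 ± 0.08 in shUGDH-1 and -2.89 ± 0.08 in shUGDH-2 (SE, 3 libraries a group). Libraries held 9249738 to 13328002 counts. Of the cell line's markers, VIM, CD44, KRT18 and FN1 were present and ESR1 and PGR were near 0, whereas ERBB2 was not near 0, with group means of 127, 127 and 117 CPM in shUGDH-1, shUGDH-2 and shNT. Among endothelial markers, which matter because vessels express NRP1, NRP2 and PLXND1, PECAM1, CDH5, VWF, TEK and TIE1 were near 0. KDR averaged 2.84, 3.19 and 3.45 CPM in shUGDH-1, shUGDH-2 and shNT. Summed over the 6 endothelial markers the libraries ran from 2.33 to 4.02 CPM in shUGDH-1 and 2.62 to 3.64 CPM in shUGDH-2, against 3.57 to 3.84 CPM in shNT. The sums of the other marker lists below lay apart from shNT in shUGDH-1. In shUGDH-2 the leukocyte sum and the neuron and glia sum overlapped with shNT. The summed fibroblast markers ran from 41.2 to 44.1 CPM in shUGDH-1 and 38.2 to 40.2 CPM in shUGDH-2, against 33.8 to 37.8 CPM in shNT, with DCN and LUM at 0, PDGFRA near 0 and 3 of 6 tested. Nearly all of the sum was PDGFRB, COL1A1 and COL1A2. In shUGDH-1, shUGDH-2 and shNT, PDGFRB averaged 20.7, 22.2 and 20.1 CPM and COL1A1 10.6, 13.3 and 9.89 CPM. COL1A2 averaged 11.8, 3.84 and 6.18 CPM, so it lay above shNT with 1 hairpin and below it with the other. The leukocyte sum, nearly all of it CD68, ran from 84.9 to 91.5 CPM in shUGDH-1 and 86.9 to 93.6 CPM in shUGDH-2, against 93.3 to 100.6 CPM in shNT. Histone genes summed to 132.6 to 137.6 CPM in shUGDH-1 and 100.6 to 106.6 CPM in shUGDH-2, against 108.2 to 119.5 CPM in shNT. The neuron and glia list, nearly all of it MBP, summed to 151.4 to 154.3 CPM in shUGDH-1 and 158.4 to 165.6 CPM in shUGDH-2, against 156.3 to 161.6 CPM in shNT. The part of these lists in the results below was not tested. In bulk RNA, fewer cells of a kind and less RNA per cell cannot be told apart.

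NRP1, PLXNB2 and PLXNA1 were the most abundant transcripts of the family per length. In shNT cells their levels were 76.1, 68.0 and 61.9 CPM per kilobase of transcript. The next were the ligands SEMA6B at 32.6 and SEMA4B at 20.5 CPM per kilobase in shNT, followed by the secreted SEMA3B at 16.2 and SEMA3C at 15.95. NRP2 stood far lower, at 5.61 CPM per kilobase in shUGDH-1 and 4.80 in shUGDH-2, against 2.36 in shNT. Together, the family took 0.236, 0.238 and 0.237% of all counts in the shUGDH-1 libraries and 0.241, 0.237 and 0.236% in the shUGDH-2 libraries, against 0.223, 0.228 and 0.223% in the shNT libraries. The knockdown libraries did not overlap with the control libraries on this share. Abundant genes weigh most in it, so it does not describe the family gene by gene. PLXNB2 averaged 486 and 499 CPM in shUGDH-1 and shUGDH-2, against 434 CPM in shNT. NRP1 averaged 426 and 449 CPM, against 447.5 CPM.

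**Figure D1:**
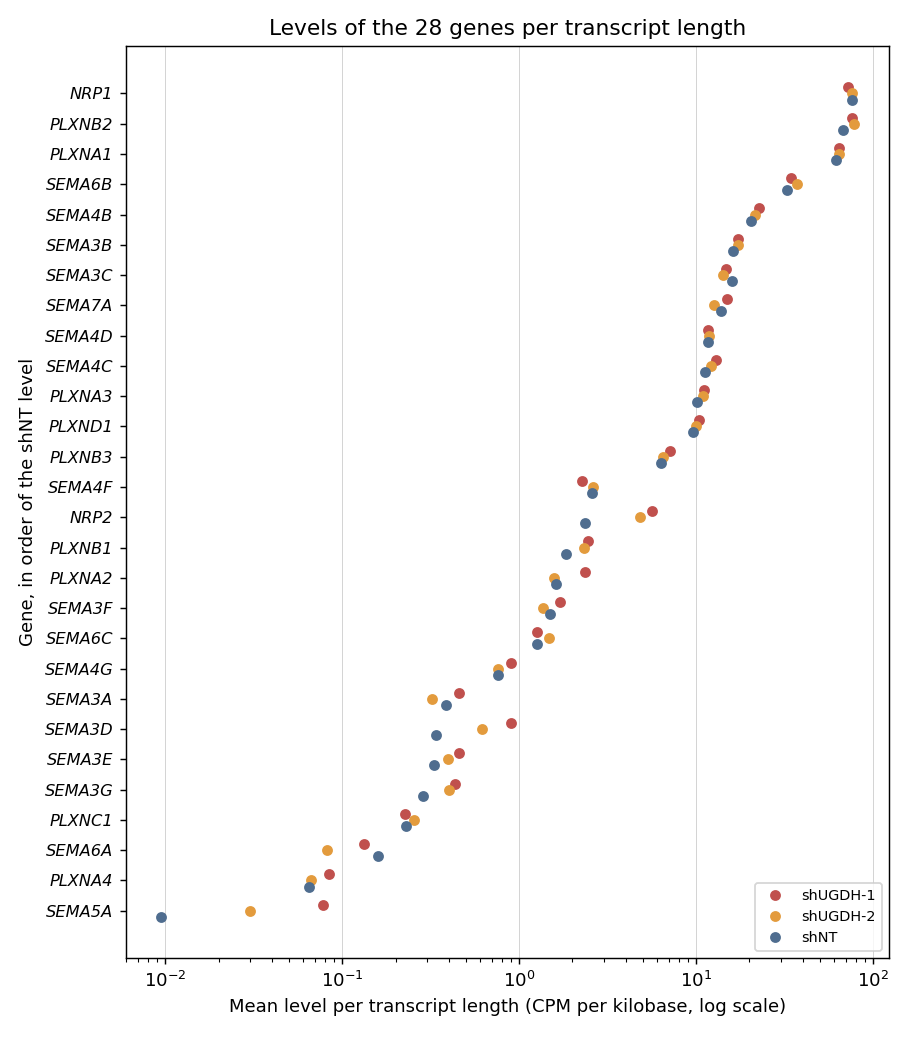
Level per length (CPM per kilobase of transcript, log axis) of each family member, by group. Points are means of 3 libraries, and their spread is not drawn. NRP1, PLXNB2 and PLXNA1 lie highest, and NRP2 lies higher in both knockdown groups than in shNT.

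In shUGDH-1 cells 8 of the 27 genes tested rose and 1 fell against shNT. They were SEMA3D, SEMA4B, SEMA4C, PLXNA2, PLXNA3, PLXNB1, PLXNB2 and NRP2, which rose, and NRP1, which fell. Passing here means an adjusted p below 0.05 in the quasi-likelihood test of edgeR, with Benjamini-Hochberg adjustment over all genes tested. The members that rose were 29.6% of those tested, against 10.5% of all genes tested, and the member that fell was 3.70%, against 10.3%. The median log2 fold change of the 27 genes was 0.15, and that of all genes tested was 0.00. With the trend of fold changes on GC content, transcript length and expression removed, an alternative added after the data were seen, the family's median was 0.07.

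In shUGDH-2 cells 6 of the 27 genes rose, namely SEMA3D, SEMA6B, PLXNA3, PLXNB1, PLXNB2 and NRP2, and SEMA3C fell. The members that rose were 22.2% of those tested, against 8.04% of all genes tested, and the member that fell was 3.70%, against 6.81%. The median log2 fold change of the family was 0.05, and that of all genes tested was -0.01. With the same trend removed, the family's median was -1e-04. Both comparisons use the same 3 shNT libraries, so their values are not independent of each other. The authors' deposited tables call the same 9 members in shUGDH-1 and the same 7 in shUGDH-2, each in the same direction.

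**Figure D2:**
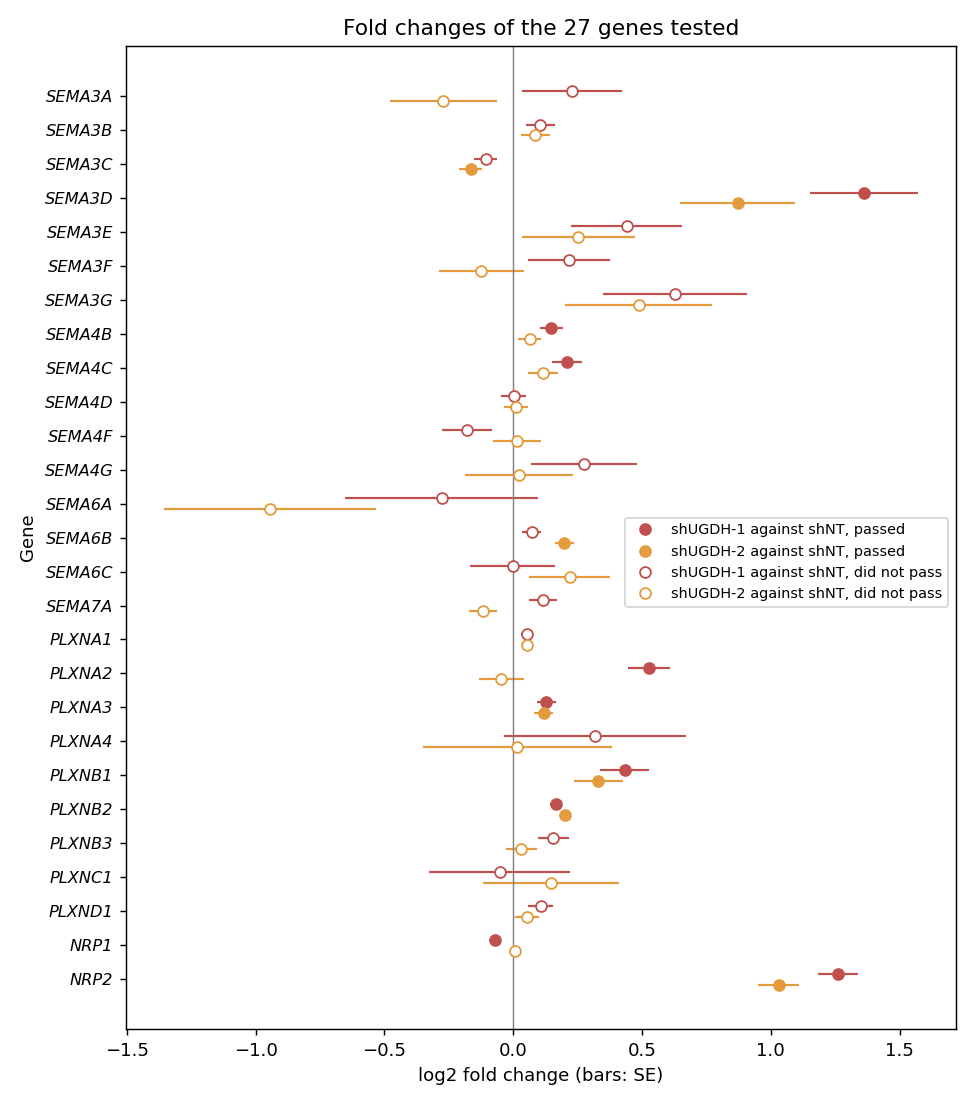
Log2 fold change against shNT (linear axis, bars are SE) of the 27 genes tested, for shUGDH-1 and shUGDH-2; filled points had an adjusted p below 0.05 and open points did not. NRP2 and SEMA3D lie farthest to the right with either hairpin, at 1.26 and 1.36 in shUGDH-1 and at 1.03 and 0.87 in shUGDH-2.

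Among the 7 secreted class 3 ligands, SEMA3D rose in shUGDH-1 and none fell, and in shUGDH-2 SEMA3D rose and SEMA3C fell. For all genes tested, the shares that rose were 10.5% in shUGDH-1 and 8.04% in shUGDH-2, and 6.81% fell in shUGDH-2. With so few genes in each ligand class, these calls are not read as traits of a class. SEMA3D, a ligand known for patterning vessels in mice, had 4.39, 4.97 and 7.49 CPM in shUGDH-1 and 3.79, 4.31 and 3.48 CPM in shUGDH-2, against 1.61, 2.21 and 2.56 CPM in shNT. These levels rest on 57, 66 and 69 counts in shUGDH-1 and 45, 56 and 43 in shUGDH-2, against 21, 26 and 30 in shNT. Every knockdown library lay above every control library, and replicate 3 of shUGDH-1 was the highest. The log2 fold change of SEMA3D was 1.36 ± 0.21 in shUGDH-1, or 2.57-fold (SE; edgeR adjusted p = 6.95e-07). In shUGDH-2 it was 0.87 ± 0.22, or 1.83-fold (SE; edgeR adjusted p = 0.00387).

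SEMA3C, a secreted ligand that works through neuropilins and is known in heart outflow development, had 79.2, 76.4 and 73.9 CPM in shUGDH-1 and 75.9, 71.9 and 73.3 CPM in shUGDH-2, against 84.6, 80.9 and 82.0 CPM in shNT. All knockdown libraries lay below the controls. SEMA3C fell by 0.17 ± 0.04 on the log2 scale in shUGDH-2 (SE; edgeR adjusted p = 0.00592), while its value in shUGDH-1 was -0.11 ± 0.04 (SE; edgeR adjusted p = 0.0799). With the same trend on GC content, length and expression removed, the value in shUGDH-2 was -0.10. The genes of SEMA3A, SEMA3C, SEMA3D and SEMA3E all lie on chromosome 7. SEMA3A, the founding collapsing factor of nerve growth cones, had log2 values of 0.23 ± 0.19 in shUGDH-1 and -0.27 ± 0.21 in shUGDH-2 (SE), neither of which passed. SEMA3E, which binds PLXND1 without a neuropilin, had log2 values of 0.44 ± 0.22 and 0.25 ± 0.22 in shUGDH-1 and shUGDH-2 (SE), which did not pass. SEMA3B, the most abundant class 3 ligand per length beside SEMA3C, averaged 51.2 ± 3.24 and 50.7 ± 1.23 CPM in shUGDH-1 and shUGDH-2, against 47.9 ± 3.53 CPM in shNT (SD, n = 3 each), and did not pass.

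Of the 5 transmembrane class 4 ligands tested, SEMA4B and SEMA4C rose in shUGDH-1, where 10.5% of all genes tested rose. In shUGDH-2 none of the 5 passed in either direction. SEMA4C, a ligand of PLXNB2, had 46.4, 45.8 and 45.4 CPM in shUGDH-1 and 42.9, 42.0 and 44.2 CPM in shUGDH-2, against 40.4, 41.7 and 36.8 CPM in shNT. Both knockdown groups lay wholly above the controls. SEMA4C had a log2 fold change of 0.21 ± 0.06 in shUGDH-1 (SE; edgeR adjusted p = 0.00536) and 0.12 ± 0.06 in shUGDH-2 (SE; edgeR adjusted p = 0.190).

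SEMA4B, another transmembrane ligand, had 84.9, 90.4 and 82.6 CPM in shUGDH-1 and 84.0, 77.1 and 83.2 CPM in shUGDH-2, against 75.8, 79.2 and 78.6 CPM in shNT. The shUGDH-1 libraries lay above the controls, and 1 shUGDH-2 library lay among them. SEMA4B gave a log2 fold change of 0.15 ± 0.05 in shUGDH-1 (SE; edgeR adjusted p = 0.0122) and 0.06 ± 0.05 in shUGDH-2 (SE; edgeR adjusted p = 0.383). SEMA4D, the ligand of PLXNB1 that the protease MMP14 can release from the surface, had group means of 66.7, 67.0 and 66.4 CPM in shUGDH-1, shUGDH-2 and shNT. Its log2 value against shNT had a 95% interval of -0.09 to 0.10 in shUGDH-1 and of -0.08 to 0.11 in shUGDH-2.

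The 4 class 5, 6 and 7 ligands tested gave 1 call against shNT, for SEMA6B in shUGDH-2, where 8.04% of all genes tested rose. SEMA6B, a transmembrane ligand of A-type plexins and the most abundant semaphorin per length, had 133, 135 and 143 CPM in shUGDH-1 and 152, 152 and 143 CPM in shUGDH-2, against 123, 136 and 130 CPM in shNT. The shUGDH-2 libraries lay above the controls, and the shUGDH-1 libraries overlapped with them. The log2 fold change of SEMA6B was 0.20 ± 0.04 in shUGDH-2 (SE; edgeR adjusted p = 6.17e-05) and 0.07 ± 0.04 in shUGDH-1 (SE; edgeR adjusted p = 0.184). With the trend on GC content, length and expression removed, the shUGDH-2 value was 0.10.

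SEMA7A, which is anchored to the membrane by a lipid and also signals through integrins, had 50.2, 50.4 and 50.3 CPM in shUGDH-1 and 42.7, 42.0 and 43.6 CPM in shUGDH-2, against 46.2, 45.3 and 47.7 CPM in shNT. The 3 groups did not overlap, with shUGDH-1 the highest and shUGDH-2 the lowest. SEMA7A passed in neither comparison with shNT, where its log2 values were 0.12 ± 0.05 in shUGDH-1 (SE; edgeR adjusted p = 0.119) and -0.12 ± 0.05 in shUGDH-2 (SE; edgeR adjusted p = 0.149). SEMA5A, a ligand of PLXNB3 that binds heparan and chondroitin sulfate, was below the filter, with 17, 6 and 9 counts in shUGDH-1 and 5, 2 and 6 in shUGDH-2, against 1, 2 and 1 in shNT. SEMA5A reached the bound of 30 summed counts mainly through shUGDH-1, the group where it is high, so no test of it is given.

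**Figure D3:**
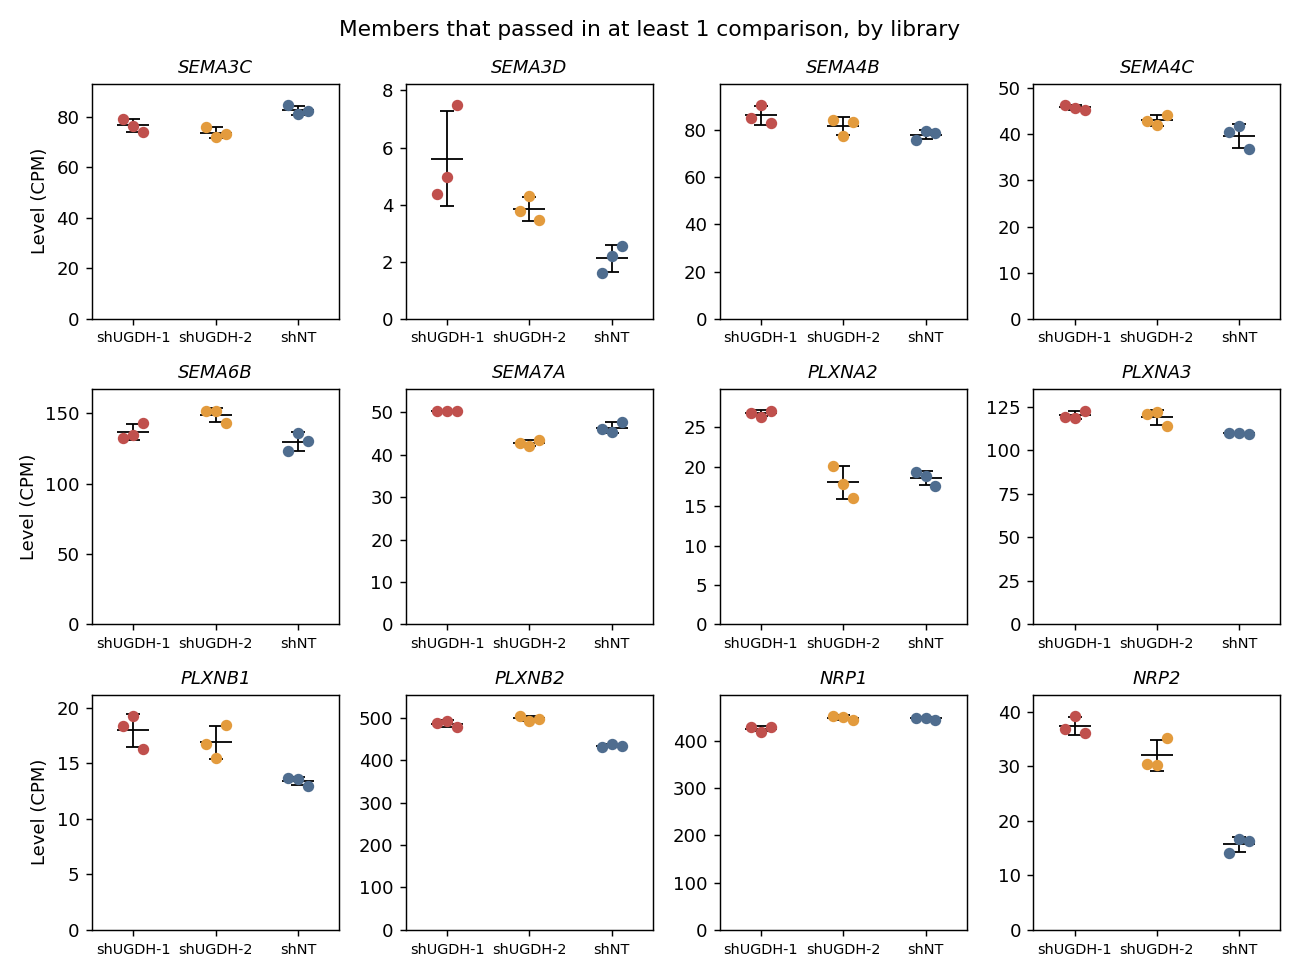
Levels in CPM (linear axes from 0, 1 panel per gene) of the 12 members that passed in at least 1 of the 3 comparisons; points are libraries, lines are means and bars are SD of 3 libraries. Both knockdown groups lie wholly above shNT in the NRP2, SEMA3D, SEMA4C, PLXNA3, PLXNB1 and PLXNB2 panels. In the PLXNA2 panel only shUGDH-1 does.

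Of the 9 plexins, PLXNA2, PLXNA3, PLXNB1 and PLXNB2 rose in shUGDH-1, and PLXNA3, PLXNB1 and PLXNB2 rose in shUGDH-2. No plexin fell against shNT. Over all genes tested, 10.5% rose and 10.3% fell in shUGDH-1, and 8.04% rose and 6.81% fell in shUGDH-2. PLXNB2, the receptor of SEMA4C, had 488, 494 and 478 CPM in shUGDH-1 and 505, 493 and 498 CPM in shUGDH-2, against 431, 438 and 434 CPM in shNT. The knockdown libraries all lay above the controls, by a margin wider than the range within any group. PLXNB2 rose by 0.17 ± 0.02 on the log2 scale, or 1.12-fold, in shUGDH-1 (SE; edgeR adjusted p = 1.85e-08). It was 0.20 ± 0.02, or 1.15-fold, in shUGDH-2 (SE; edgeR adjusted p = 9.43e-11).

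PLXNB1, the receptor of SEMA4D, had 18.3, 19.3 and 16.3 CPM in shUGDH-1 and 16.8, 15.5 and 18.4 CPM in shUGDH-2, against 13.7, 13.6 and 12.95 CPM in shNT. Neither knockdown group overlapped with the controls. The log2 fold change of PLXNB1 was 0.43 ± 0.09 in shUGDH-1 (SE; edgeR adjusted p = 0.000365) and 0.33 ± 0.10 in shUGDH-2 (SE; edgeR adjusted p = 0.0111).

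PLXNA2, a receptor of SEMA6A and of class 3 complexes, had 26.9, 26.3 and 27.1 CPM in shUGDH-1 and 20.1, 17.9 and 16 CPM in shUGDH-2, against 19.3, 18.8 and 17.6 CPM in shNT. Only the shUGDH-1 libraries stood apart, and the shUGDH-2 libraries spanned the range of the controls. PLXNA2 gave a log2 fold change of 0.53 ± 0.08, or 1.44-fold, in shUGDH-1 (SE; edgeR adjusted p = 6.55e-07) and -0.05 ± 0.09 in shUGDH-2 (SE; edgeR adjusted p = 0.792).

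PLXNA3, which pairs with NRP2 in the receptor of SEMA3F, had 119, 119 and 123 CPM in shUGDH-1 and 121, 122 and 114 CPM in shUGDH-2, against 110, 110 and 109 CPM in shNT. All knockdown libraries lay above the controls. PLXNA3 had a log2 fold change of 0.13 ± 0.04 in shUGDH-1 (SE; edgeR adjusted p = 0.00828) and 0.12 ± 0.04 in shUGDH-2 (SE; edgeR adjusted p = 0.0219). The small plexin differences shrank with the trend on GC content, length and expression removed. PLXNB2 was then at 0.09 in shUGDH-1 and 0.13 in shUGDH-2, and PLXNA3 at 0.05 in each, on the log2 scale. SEMA4B was likewise at 0.10 in shUGDH-1.

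PLXNA1, a receptor for class 3 complexes and the most abundant A-type plexin, had 576, 587 and 581 CPM in shUGDH-1 and 589, 579 and 578 CPM in shUGDH-2, against 561, 569 and 553 CPM in shNT. The groups did not overlap with the controls, yet PLXNA1 did not pass in shUGDH-1 (log2 0.05 ± 0.02, SE; edgeR adjusted p = 0.0676) or in shUGDH-2 (0.05 ± 0.02, SE; edgeR adjusted p = 0.0724). PLXND1, the receptor of SEMA3E, had group means of 73.8 ± 2.48 and 71.0 ± 2.33 CPM in shUGDH-1 and shUGDH-2, against 68.4 ± 3.53 CPM in shNT (SD, n = 3 each), and did not pass. PLXNB3, the receptor of SEMA5A, did not pass in shUGDH-1 (log2 0.16 ± 0.06, SE; edgeR adjusted p = 0.0559) or in shUGDH-2 (0.03 ± 0.06, SE; edgeR adjusted p = 0.801). PLXNB3 shares 1252 exon bases with SRPK3 on the same strand, so its reads cannot be told apart from that gene's there.

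NRP2 gave the lowest adjusted p of the family, and the other neuropilin, NRP1, changed little. NRP2, a coreceptor for SEMA3F and VEGFC, had 36.9, 39.2 and 36.0 CPM in shUGDH-1 and 30.5, 30.2 and 35.2 CPM in shUGDH-2, against 14.1, 16.7 and 16.4 CPM in shNT. The underlying counts were 479, 521 and 332 in shUGDH-1 and 362, 392 and 436 in shUGDH-2, against 183, 196 and 192 in shNT. The knockdown libraries lay far above the controls with no overlap. The log2 fold change of NRP2 was 1.26 ± 0.08, or 2.40-fold, in shUGDH-1 (SE; edgeR adjusted p = 1.66e-20). It was 1.03 ± 0.08, or 2.04-fold, in shUGDH-2 (SE; edgeR adjusted p = 4.82e-16). The authors' deposited tables have log2 fold changes of 1.22 for NRP2 in shUGDH-1 and 0.98 in shUGDH-2. For SEMA3D the authors' values were lower than those of edgeR. They were 1.02 against 1.36 in shUGDH-1 and 0.68 against 0.87 in shUGDH-2.

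NRP1, the coreceptor of SEMA3A and VEGFA, had 429, 419 and 429 CPM in shUGDH-1 and 453, 451 and 444 CPM in shUGDH-2, against 448, 449 and 445 CPM in shNT. The shUGDH-1 libraries lay below the controls, and the shUGDH-2 libraries overlapped with them. NRP1 fell by 0.07 ± 0.02 on the log2 scale in shUGDH-1 (SE; edgeR adjusted p = 0.0126), and its value in shUGDH-2 was 0.01 ± 0.02, with a 95% interval of -0.04 to 0.05. With the trend on GC content, length and expression removed, the value of NRP1 in shUGDH-1 was -0.05. Per length, NRP2 made up 7.06, 7.63 and 6.90% of the neuropilin transcripts in shUGDH-1 and 5.62, 5.58 and 6.54% in shUGDH-2, against 2.69, 3.17 and 3.14% in shNT. NRP1 thus remained by far the more abundant neuropilin transcript in every library. NRP2 shares 147 exon bases with an antisense RNA, AC007362.1, and NRP1 shares 561 with another, AL121748.2. The sources used here do not state whether the counting used strand.

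The family was then compared between the hairpins, shUGDH-2 against shUGDH-1, a comparison that uses no control libraries for the difference itself. SEMA6B and NRP1 were higher in shUGDH-2 and SEMA7A, PLXNA2 and NRP2 were lower, which made 2 higher and 3 lower of 27, or 7.41% and 11.1%. Over all genes tested the shares were 5.36% higher and 5.51% lower. PLXNA2 had the widest of these gaps, at -0.57 ± 0.08 on the log2 scale (SE; edgeR adjusted p = 1.59e-07). SEMA7A differed by -0.23 ± 0.05 (SE; edgeR adjusted p = 0.00139), NRP2 by -0.23 ± 0.07 (SE; edgeR adjusted p = 0.0160) and SEMA6B by 0.13 ± 0.04 (SE; edgeR adjusted p = 0.0150). NRP1 differed by 0.08 ± 0.02 (SE; edgeR adjusted p = 0.0107). UGDH did not differ detectably between the hairpins, at -0.09 ± 0.13 (SE; edgeR adjusted p = 0.740).

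SEMA3D was lower in shUGDH-2 than in shUGDH-1 by value, at -0.49 ± 0.18 (SE; edgeR adjusted p = 0.0703), and did not pass. It passed with only these groups in the fit (edgeR adjusted p = 0.0469), without replicate 1 of shNT (0.0484) and without replicate 1 of shUGDH-1, where the value was -0.64 (0.0272). The other 15 members passed in none of the 3 comparisons. Of these, 9 had group means under 10 CPM, namely SEMA3A, SEMA3E, SEMA3F, SEMA3G, SEMA4G, SEMA6A, SEMA6C, PLXNA4 and PLXNC1. Their log2 values ran from -0.28 to 0.63 in shUGDH-1 and from -0.95 to 0.49 in shUGDH-2, with SE of 0.16 to 0.41, so changes of modest size were not detectable at this depth. The 6 more abundant ones, SEMA3B, SEMA4D, SEMA4F, PLXNA1, PLXNB3 and PLXND1, ran from -0.18 to 0.16 in shUGDH-1 and from 0.01 to 0.09 in shUGDH-2.

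Several of the smaller calls depended on single libraries or on the test, as follows. In shUGDH-1 the fall of NRP1 was lost without replicate 2 of shUGDH-1, the rise of SEMA4C without replicate 3 of shNT, and the rise of SEMA4B in DESeq2's Wald test and with either replicate 1 of shNT or replicate 2 of shUGDH-1 left out. Without replicate 2 of shNT, SEMA3B, PLXNA1, PLXNB3 and PLXND1 also rose in shUGDH-1, in a fit where 9.90% of all genes rose. PLXNA1 also passed in shUGDH-2 with that library left out, and PLXNB3 in shUGDH-1 without replicate 1 of shUGDH-1 (log2 0.22; edgeR adjusted p = 0.0142). In shUGDH-2 the rise of PLXNB1 was lost without replicate 3 of shUGDH-2 and in DESeq2, and that of PLXNA3 in DESeq2 and with replicate 3 of shNT or replicate 1 or 2 of shUGDH-2 left out. SEMA6A, with few counts, passed as lower in shUGDH-2 once replicate 3 of shUGDH-2 was left out, at -1.57 (edgeR adjusted p = 0.0323). Between the hairpins, NRP1 was lost without replicate 2 of shUGDH-1. SEMA6B was lost without replicate 1 or 2 of either knockdown group, and NRP2 without replicate 2 of shUGDH-1 and without replicate 1 or 2 of shUGDH-2. DESeq2 called neither SEMA6B nor NRP2 between the hairpins.

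Genes that act with the family were described from a list of 65, of which 53 were tested. In shUGDH-1, 13 rose and 5 fell, which was 24.5% and 9.43% of those tested, against the 10.5% and 10.3% of all genes. In shUGDH-2, 9 rose and 2 fell, or 17.0% and 3.77%, against 8.04% and 6.81%. The list's median log2 value was 0.06 in each. Its genes had a median level of 62.4 CPM, against 31.3 CPM for all genes tested. The part of level in these shares was not tested. Of the 34 cytoplasmic signalling genes tested, 5 rose and 2 fell in shUGDH-1, and 4 rose and none fell in shUGDH-2. Among the 10 other surface receptors tested, 5 rose and 2 fell in shUGDH-1, and 3 rose and 2 fell in shUGDH-2. In shUGDH-2 the list's counts were 5 higher and 1 lower of 53 by DESeq2, against 9 and 2 in the main fit. No share over all genes was taken for DESeq2, so its counts have no background beside them. Also in shUGDH-2, 5 rose without replicate 3 of shUGDH-2, in a fit where 6.46% of all genes rose. There 1 fell without replicate 2 or 3 of shNT or replicate 2 of shUGDH-2.

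L1CAM, a cell adhesion molecule that joins NRP1 in the SEMA3A receptor, had 328, 323 and 315 CPM in shUGDH-1 and 263, 259 and 271 CPM in shUGDH-2, against 213, 232 and 222 CPM in shNT. The groups were fully separate. L1CAM had a log2 fold change of 0.54 ± 0.03 in shUGDH-1 (SE; edgeR adjusted p = 5.11e-24) and 0.25 ± 0.03 in shUGDH-2 (SE; edgeR adjusted p = 4.72e-10). DPYSL2, also called CRMP2, carries the SEMA3A signal to microtubules. It had 364, 377 and 369 CPM in shUGDH-1 and 361, 362 and 362 CPM in shUGDH-2, against 295, 294 and 296 CPM in shNT. The knockdown libraries lay above all controls, with log2 fold changes of 0.33 ± 0.02 for DPYSL2 in shUGDH-1 (SE; edgeR adjusted p = 3.85e-17) and 0.29 ± 0.02 in shUGDH-2 (SE; edgeR adjusted p = 4.35e-15).

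CSPG4, a transmembrane chondroitin sulfate proteoglycan, had 44.7, 46.5 and 46.1 CPM in shUGDH-1 and 28.1, 26.0 and 29.3 CPM in shUGDH-2, against 29.7, 34.6 and 33.1 CPM in shNT. The shUGDH-1 libraries lay above the controls and the shUGDH-2 libraries below them. CSPG4 rose by a log2 value of 0.50 ± 0.06 in shUGDH-1 (SE; edgeR adjusted p = 5.07e-09) and had -0.22 ± 0.07 in shUGDH-2 (SE; edgeR adjusted p = 0.0177), a call that was lost in DESeq2 and without replicate 2 or 3 of shNT or replicate 2 of shUGDH-2. The difference between the hairpins was -0.72 ± 0.06 for CSPG4 (SE; edgeR adjusted p = 1.16e-13).

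**Figure D4:**
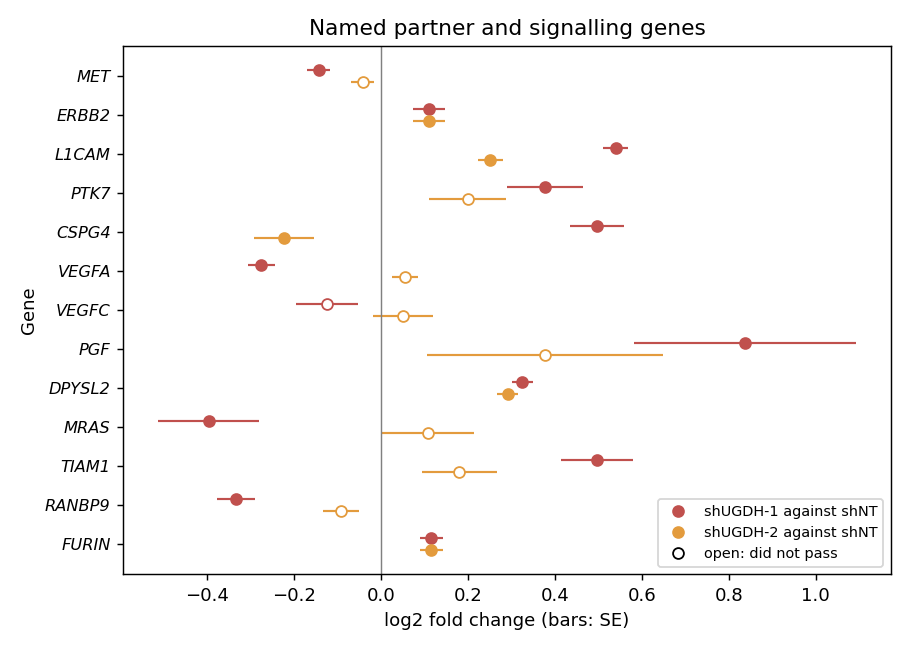
Log2 fold change against shNT (bars are SE) of the 13 partner genes named by rule, for shUGDH-1 and shUGDH-2; filled points had an adjusted p below 0.05. L1CAM and DPYSL2 lie to the right of 0 with either hairpin, while CSPG4 lies on opposite sides, at 0.50 in shUGDH-1 and -0.22 in shUGDH-2.

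VEGFA, the growth factor that binds NRP1, had 156, 160 and 157 CPM in shUGDH-1 and 203, 194 and 199 CPM in shUGDH-2, against 191, 186 and 196 CPM in shNT. The shUGDH-1 libraries lay below all others. VEGFA fell by 0.27 ± 0.03 on the log2 scale in shUGDH-1 (SE; edgeR adjusted p = 3.24e-10), and its value in shUGDH-2 was 0.06 ± 0.03 (SE; edgeR adjusted p = 0.233). Between the hairpins VEGFA differed by 0.33 ± 0.03 (SE; edgeR adjusted p = 9.00e-13). VEGFC, a ligand of NRP2, averaged 28.4 ± 1.70 and 32.2 ± 0.62 CPM in shUGDH-1 and shUGDH-2, against 31.2 ± 3.23 CPM in shNT (SD, n = 3 each), and did not pass. PGF, another VEGF family member that binds neuropilins, averaged 2.87, 2.07 and 1.61 CPM in shUGDH-1, shUGDH-2 and shNT and rose in shUGDH-1 (log2 0.84 ± 0.25, SE; edgeR adjusted p = 0.0124). This call was lost in DESeq2 and with replicate 1 of shNT or replicate 2 of shUGDH-1 left out.

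MET, the hepatocyte growth factor receptor that associates with PLXNB1, averaged 269 ± 5.38 and 288 ± 5.77 CPM in shUGDH-1 and shUGDH-2, against 296 ± 8.14 CPM in shNT (SD, n = 3 each). It fell by 0.14 ± 0.03 on the log2 scale in shUGDH-1 (SE; edgeR adjusted p = 3.10e-05), and its shUGDH-2 value of -0.04 did not pass. ERBB2, which also associates with PLXNB1, had log2 fold changes of 0.11 ± 0.04 in each knockdown (SE; edgeR adjusted p = 0.0231 in shUGDH-1 and 0.0279 in shUGDH-2), both of which were lost in DESeq2 and without replicate 1 or 3 of shNT. The shUGDH-1 call of ERBB2 was also lost without replicate 1 of shUGDH-1, and its shUGDH-2 call without replicate 1 or 3 of shUGDH-2. FURIN, the protease that cleaves class 3 semaphorins, averaged 306 ± 9.44 and 306 ± 5.80 CPM in shUGDH-1 and shUGDH-2, against 282 ± 8.92 CPM in shNT (SD, n = 3 each). FURIN rose by 0.12 ± 0.03 on the log2 scale in each (SE; edgeR adjusted p = 0.000764 in shUGDH-1 and 0.00130 in shUGDH-2).

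The remaining partner genes named by the rule passed in shUGDH-1 and not in shUGDH-2. TIAM1, an activator of the GTPase Rac, had a log2 value of 0.50 ± 0.08 in shUGDH-1, where it rose, and 0.18 ± 0.09 in shUGDH-2 (SE). PTK7, a kinase-dead receptor known as a plexin partner in vertebrate development, had 0.38 ± 0.09 in shUGDH-1, where it rose, and 0.20 ± 0.09 in shUGDH-2 (SE). RANBP9, a scaffold that binds PLXNA1, had -0.33 ± 0.04 in shUGDH-1, where it fell, and -0.09 ± 0.04 in shUGDH-2 (SE). MRAS, a Ras-type GTPase that plexins act on, had -0.40 ± 0.12 in shUGDH-1, where it fell, a call lost in DESeq2, and 0.11 ± 0.11 in shUGDH-2 (SE). Between the hairpins TIAM1, RANBP9 and MRAS differed, at -0.32 ± 0.08, 0.24 ± 0.04 and 0.51 ± 0.11 on the log2 scale (SE; edgeR adjusted p = 0.00434, 2.72e-05 and 0.000992). PTK7 did not pass between the hairpins, at -0.18 ± 0.08 (SE). The gap in TIAM1 was lost without replicate 1 of shUGDH-1.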

How the data were processed

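The deposited count table holds whole-number read counts per gene for 9 libraries. The submitters' processing notes name hg19, STAR, DESeq and DESeq2. The sources used here do not state versions, annotation or use of strand. For each hairpin against shNT, the authors' deposited tables give, as their headers name them, baseMean (the mean signal of a gene), a log2 fold change and its error, and p-values before and after adjustment. Only their calls and log2 fold changes are quoted. The members, lists and tests were chosen with earlier results of these data known, so no pattern here is independent support for them.

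A filter on low counts (filterByExpr of edgeR, given the 3 groups) kept 12546 genes and 99.93% of counts. Of the table's entries, 28 had names converted to dates and stayed in the fit. TMM scaling (0.997 to 1.003) was used in edgeR 4.0.16 under R 4.3.3, with a robust quasi-likelihood fit over all 9 libraries, 1 mean per group, no replicate block, with 6 residual degrees of freedom. This fit draws each gene's spread towards that of the other genes, so its SE and p-value do not rest on its own counts alone. edgeR's quasi-likelihood test gave p-values, adjusted by Benjamini-Hochberg over all genes tested. The SE is the log2 fold change divided by the root of the F statistic.

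Lengths and GC content came from GENCODE transcripts in GRCh38 (longest basic transcript, known for 92.63% of tested genes and 28 of 28 members), a build other than the authors'. Alternatives were DESeq2 1.42.0, other filters and scalings, leaving out each library, the replicate block, and a trend on GC content, length and expression (mgcv 1.9.3). Named genes were UGDH, all members, the 8 passing partner genes that had the largest fold changes and reached a mean of 1 CPM in some group, and MET, ERBB2, VEGFA, VEGFC and FURIN.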

Additional observations from a re-analysis of the deposited data

Results flagged for a closer look

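In 5 of the 27 members tested the direct test between shUGDH-2 and shUGDH-1 passed, and 10.9% of all genes tested passed it. The differences on the log2 scale were -0.57 for PLXNA2, -0.23 for SEMA7A, -0.23 for NRP2, 0.13 for SEMA6B and 0.0787 for NRP1. PLXNA2 and SEMA7A passed under all 14 other settings tried. NRP1 was lost under 1 of them, NRP2 under 4 and SEMA6B under 5, with DESeq2 among those for NRP2 and SEMA6B. The SEMA6B libraries of the hairpins overlapped.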

How the results depend on the processing

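No fold change of a named gene that had passed changed sign under the 14 other settings, and 32 of the 47 calls passed under all of them; the calls of members that were lost are named with their genes above. By DESeq2, partner genes in shUGDH-2 numbered 5 higher and 1 lower, and 1 member was higher in shUGDH-2 than in shUGDH-1. No share over all genes was taken for DESeq2. Leaving out 1 library gave 8 to 13 members higher and 0 to 1 lower in shUGDH-1 (median log2 0.1112 to 0.1642), and 1 to 2 lower in shUGDH-2 (median 0.0453 to 0.0982). It gave 5 to 10 partner genes higher and 1 to 2 lower in shUGDH-2, and 0 to 2 members higher in shUGDH-2 than in shUGDH-1 (median -0.0988 to -0.0413). Over all genes in these fits, 8.246 to 10.61% rose in shUGDH-1, 5.976 to 8.155% rose in shUGDH-2 and 3.86 to 6.565% were higher in shUGDH-2 than in shUGDH-1. These member counts and medians take in SEMA5A where it passed the filter, and no result for SEMA5A is drawn from them. It is 1 of the 8 in shUGDH-1 without replicate 1 or 3 of shNT or replicate 2 of shUGDH-1, and 1 of the 13. Fewer than 8 of the other members thus rose in shUGDH-1 in those 3 fits. With the trend on GC content, length and expression removed, the members' median was 0.0696 in shUGDH-1 and -1e-04 in shUGDH-2. The replicate numbers did not pair the libraries: deviations of same-numbered libraries correlated at -0.076 to 0.118, and 2 of 9 libraries correlated best with their own number. With the replicate block, 8 members rose and 1 fell in shUGDH-1, 6 rose and 1 fell in shUGDH-2, and no call of a named gene changed; with the block and the trend removed the medians were 0.0687 in shUGDH-1 and 3e-04 in shUGDH-2. Depth limits the members under 10 CPM. The p-values cover the spread among these 9 libraries alone, and each gene's spread was partly drawn from other genes.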
